A study of Homo sapiens with 8 samples.

Results

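The respiratory chain subunits examined here are the protein-coding nuclear genes whose GENCODE v29 symbol is NDUFA, NDUFB, NDUFC, NDUFS or NDUFV followed by a digit, NDUFAB1, SDHA to SDHD, any symbol starting UQCR, the COX4 to COX8 subunits, or any symbol starting ATP5F1, ATP5M or ATP5P. The rule used names and no measured value. It found 89 genes in the annotation, and 85 of them were among the 31721 genes of the expression table: 39 of complex I, 4 of complex II, 9 of complex III, 14 of complex IV and 19 of complex V. COX4I2, COX6A2, COX7B2 and NDUFC2-KCTD14 were not analysed here. A mean of at least 1 FPKM (fragments scaled by exon length and library) over all libraries, the level required for testing, was reached by 76 of the 85.

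Polyadenylated RNA was sequenced from A2780, a human cell line established from an ovarian carcinoma, in 4 groups of 2 libraries treated for 24 hours. One group received DMSO, the solvent control. The others received olaparib, an inhibitor of the DNA repair enzymes PARP1 and PARP2, palbociclib, an inhibitor of the cell cycle kinases CDK4 and CDK6, or both drugs together, called the combination below. The labels name biological repeats without saying whether these were separate cultures, so p-values measure the spread between these libraries, which may be technical, and the sources used here give no dose.

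The respiratory chain sits in the inner mitochondrial membrane. Complex I takes electrons from NADH and complex II takes them from succinate, complex III passes them from ubiquinol to cytochrome c, complex IV hands them to oxygen, and complex V, the ATP synthase, uses the proton gradient that complexes I, III and IV build. The mitochondrial genome encodes a few hydrophobic subunits of complexes I, III, IV and V, and the nucleus encodes all the rest, complex II included. Complexes I, III, IV and V are thus assembled from 2 sets of transcripts. The factors NRF1, GABP (an ETS factor) and YY1 are known to act at promoters of the nuclear set.

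Promoters of 6 members whose genes are described below are shown, 5 of them lower with palbociclib and 1, ATP5MC2, not. All 6 hold at least 1 of the motifs given next. NDUFAB1, UQCRFS1 and COX7B, which were also lower with palbociclib, hold none of these motifs and are not shown. Each is the RefSeq window on GRCh38.p14 from 250 bases before to 50 bases after the gene's start, printed 5′ to 3′ on the gene's own strand. Capitals mark exact matches, on either strand, to 4 motifs: GCGCATGCG for NRF1, CCGGAAGT for ETS factors, AAGATGGC for YY1, and the E-box CACGTG. The windows lie at chr1:17053983-17054282 (minus strand) for SDHB, chr11:112086623-112086922 (plus) for SDHD, chr5:1801157-1801456 (plus) for NDUFS6, chr1:111449214-111449513 (plus) for ATP5PB, chr10:7787927-7788226 (plus) for ATP5F1C and chr12:53676034-53676333 (minus) for ATP5MC2.
SDHB: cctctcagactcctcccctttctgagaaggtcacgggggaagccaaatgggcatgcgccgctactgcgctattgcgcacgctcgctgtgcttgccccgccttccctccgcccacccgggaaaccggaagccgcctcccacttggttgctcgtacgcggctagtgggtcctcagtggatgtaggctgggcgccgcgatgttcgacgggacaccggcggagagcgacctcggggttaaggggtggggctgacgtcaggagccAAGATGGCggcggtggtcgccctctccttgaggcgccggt
SDHD: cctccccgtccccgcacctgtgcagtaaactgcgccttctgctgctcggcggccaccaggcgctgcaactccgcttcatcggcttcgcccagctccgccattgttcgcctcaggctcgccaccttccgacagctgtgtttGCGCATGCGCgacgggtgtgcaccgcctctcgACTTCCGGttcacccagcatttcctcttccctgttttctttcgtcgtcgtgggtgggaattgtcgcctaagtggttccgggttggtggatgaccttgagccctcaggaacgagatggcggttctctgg
NDUFS6: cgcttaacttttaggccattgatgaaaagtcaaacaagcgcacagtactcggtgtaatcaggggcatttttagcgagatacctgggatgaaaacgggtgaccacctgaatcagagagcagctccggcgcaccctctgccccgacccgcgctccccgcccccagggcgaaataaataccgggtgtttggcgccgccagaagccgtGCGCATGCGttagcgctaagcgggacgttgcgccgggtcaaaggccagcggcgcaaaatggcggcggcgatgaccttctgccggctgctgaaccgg
ATP5PB: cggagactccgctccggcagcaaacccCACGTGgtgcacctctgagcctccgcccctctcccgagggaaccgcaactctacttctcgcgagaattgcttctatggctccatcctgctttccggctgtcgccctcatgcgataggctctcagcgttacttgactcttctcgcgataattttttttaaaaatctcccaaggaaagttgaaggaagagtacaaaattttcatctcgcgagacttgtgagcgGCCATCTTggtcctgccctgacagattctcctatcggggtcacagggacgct
ATP5F1C: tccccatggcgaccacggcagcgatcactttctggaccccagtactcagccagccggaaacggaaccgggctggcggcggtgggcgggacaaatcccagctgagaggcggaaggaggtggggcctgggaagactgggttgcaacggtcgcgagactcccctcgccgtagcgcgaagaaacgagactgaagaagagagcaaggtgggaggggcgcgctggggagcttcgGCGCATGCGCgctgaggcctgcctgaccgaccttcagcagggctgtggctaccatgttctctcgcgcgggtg
ATP5MC2: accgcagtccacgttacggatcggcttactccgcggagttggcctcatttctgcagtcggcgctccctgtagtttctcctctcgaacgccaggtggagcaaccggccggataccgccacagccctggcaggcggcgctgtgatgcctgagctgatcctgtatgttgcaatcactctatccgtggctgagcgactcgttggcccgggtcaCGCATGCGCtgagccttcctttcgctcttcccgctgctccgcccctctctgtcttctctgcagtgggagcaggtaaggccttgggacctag

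The YY1 letters stand near the start of SDHB and ATP5PB, ATP5PB also holds an E-box, and NRF1 letters stand in NDUFS6, ATP5F1C, SDHD and ATP5MC2. SDHD holds ETS letters as well. The tables gave a promoter for 67 of the 85 members. NRF1 letters were in 10 of the 67 (14.9%) against 2.76% of 15842 promoters of protein-coding genes, YY1 letters in 11 (16.4%) against 3.91%, ETS letters in 10 (14.9%) against 6.19%, and the E-box in 7 (10.4%) against 8.88%. A match describes letters in a window and is not a binding site.

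At the level of DMSO-treated cells, the subunit genes spanned a wide range. The most abundant member of each complex by mean FPKM was NDUFS5 (complex I accessory subunit), SDHB (the iron-sulfur subunit of complex II), UQCRH (the hinge subunit of complex III), COX6B1 (complex IV) and ATP5F1B (the catalytic beta subunit of ATP synthase). NDUFS5 read 653 and 672 FPKM under DMSO, 633 and 672 under olaparib, 551 and 573 under palbociclib, then 524 and 577 under both drugs. ATP5F1B read 533 and 551 FPKM under DMSO, 485 and 496 under olaparib, 463 and 446 under palbociclib, then 418 and 423 under both drugs. For ATP5F1B every treated library lay under both DMSO libraries, and for NDUFS5 the second olaparib library lay level with the higher DMSO library while the palbociclib and combination libraries were lower. Such separation was common over all genes tested. Both libraries lay under both DMSO libraries for 38.6% of them with olaparib, 46.3% with palbociclib and 46.9% with the combination. Both lay above for 23.3%, 32.5% and 32.5%, in the same order. Of the tested members 61.8%, 73.7% and 69.7% lay below, and 7.9%, 3.95% and 9.21% above.

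UQCRH read 233 and 226 FPKM under DMSO, 204 and 210.0 under olaparib, 191 and 187 under palbociclib, then 177 and 183 under both drugs, with no overlap between any treated pair and DMSO. COX6B1 read 213 and 227 FPKM under DMSO, 202 and 208 under olaparib, 186 and 186 under palbociclib, then 179 and 203 under both drugs, and all 6 treated libraries lay under both DMSO libraries. Complex II was the least abundant complex by summed FPKM, at 89.7 ± 1.10 (SD, n = 2) in DMSO, against 2118 ± 30.9 for complex I, 1400 ± 13.7 for complex V, 552 ± 3.91 for complex III, and complex IV read 895 and 913.

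In the COX6B, COX7A, COX8, NDUFA4 and UQCRH families a single form held most of the signal. COX6B1 stood at 213 and 227 FPKM in DMSO while COX6B2, the testis form, stayed at 0.0621 to 0.173 FPKM in all libraries. COX8A read 56.3 to 68.4 FPKM and COX8C 0.0635 to 0.288, and NDUFA4, which is counted with complex I by its name although the protein is a component of complex IV, read 72.3 to 82.1 FPKM against 0.0603 to 0.292 for NDUFA4L2. COX7A2, the widely expressed form, read 70.5 to 80.1 FPKM, COX7A2L, which takes part in joining complexes III and IV, read 26.1 to 29.5, and COX7A1, the heart and muscle form, 0.875 to 2.15. COX4I1, the common form of COX4, read 53.8 to 64.4 FPKM. UQCRH stood at 177 to 233 FPKM and UQCRHL, an intronless copy of UQCRH, at 1.27 to 1.46, and because the copies are near-identical the split of reads between them is uncertain.

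A set of subunits stood far lower than their partners in the same complexes. The 9 members under the level for testing were NDUFA7, NDUFB8, NDUFS7, NDUFV2, NDUFA4L2, COX6B2, COX8C, ATP5MGL and ATP5MF-PTCD1. NDUFV2 and NDUFS7 are catalytic core subunits of complex I and read 0.462 to 1.06 and 0.382 to 0.693 FPKM, while the core subunit NDUFS1 read 13.7 to 17.3. In GENCODE v29, over 50% of the coding bases of 15 members lie in exons of another annotated gene, in 14 of them on the same strand. Of those 15, 12 had a mean under 10 FPKM and their median was 1.03 FPKM, whereas of the 60 members that share no coding base 6 were under 10 FPKM and the median was 45.1.

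The same held over all protein-coding genes of the table, with a median of 0.706 FPKM for the 865 genes above 50% and 3.66 for the 11822 that share none; 17.6% of the subunit genes and 5.33% of all protein-coding genes were above 50%. NDUFV2 shares 91.2% of its coding bases with another gene and NDUFA7 shares 100%. Among the 15, COX8A (mean 61.9 FPKM), ATP5MG (38.1) and SDHD (17.2) stood above 10 FPKM. The sources used here do not say how reads in shared exons were assigned, and the part of the overlap in these low values was not tested. The plot of level against coding overlap shows these genes on the right.

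**Figure D1:**
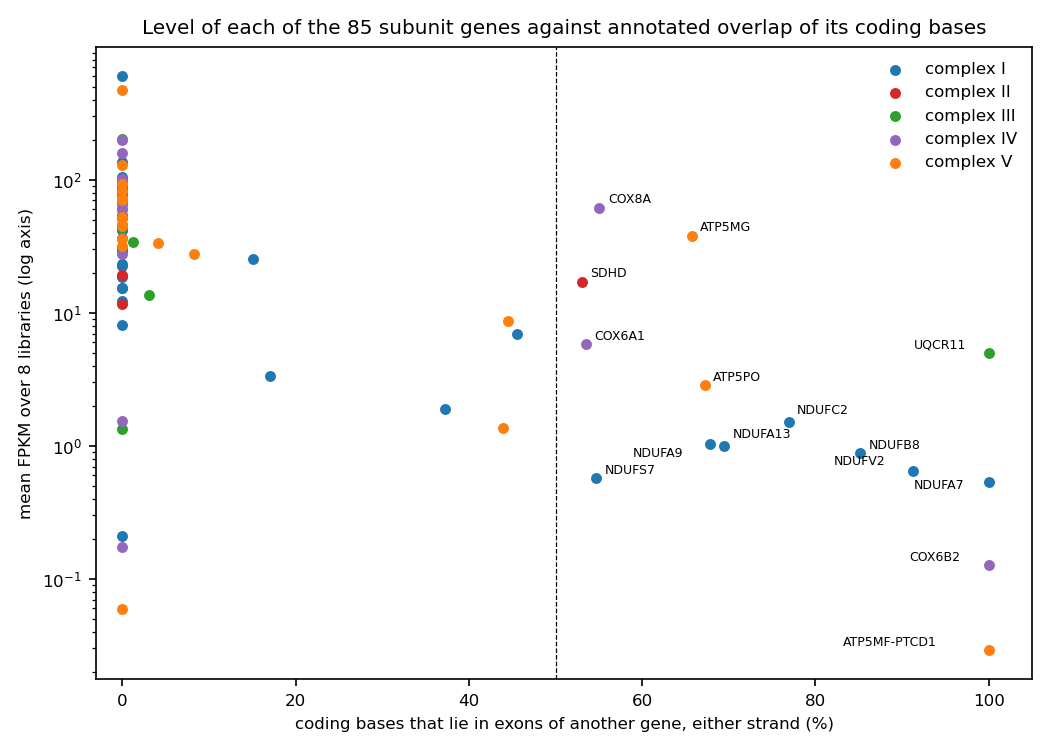
Mean FPKM over the 8 libraries (log axis) of the 85 subunit genes against the percentage of their coding bases that lie in exons of another gene on either strand; colours are complexes and the dashed line is at 50%. Of the 15 genes to the right of the line 12 lie under 10 FPKM, with COX8A, ATP5MG and SDHD above it.

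With palbociclib the share of subunit genes that fell was above that of all genes and near that of genes at a like level. In limma on log2(FPKM + 1), a scale that understates the change of low genes, with Benjamini-Hochberg adjustment over 12443 genes and a threshold of 0.05, 37 of 76 tested members fell with palbociclib against DMSO (48.7%) and 1 rose, beside 31.4% of all genes tested that fell and 18.7% that rose. Among members with a mean of at least 20 FPKM, 32 of 53 fell (60.4%), beside 54.5% of all genes at that level, a cut made after the levels were seen. The members' median log2 fold change was −0.15 against −0.05 for all genes, and over genes of at least 20 FPKM it was −0.22 for members against −0.17 for all. The falls were shallow, with the lowest member at −0.49 on the log2 scale.

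The combination gave a like picture, with 39 members lower (51.3%) and 1 higher, beside 35.3% and 21.5% of all genes tested, and a median of −0.17 against −0.06. At 20 FPKM or more 33 of 53 fell (62.3%), beside 60.4% of all genes at that level. Olaparib lowered 16 members (21.1%), beside 10.5% of all genes, and 13 of 53 at 20 FPKM or more (24.5%), beside 26% of all genes there. It raised none, also at an unadjusted p under 0.05 and by limma voom on recovered reads, beside 4.13% of all genes. The olaparib count fell when any DMSO or olaparib library was left out. It also fell without either palbociclib library, though palbociclib is not in this comparison. Each such fit has fewer residual degrees of freedom, and whether 1 library carried the falls was not tested. The 3 comparisons share their DMSO libraries.

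Of the 76 tested members 61 had a negative value under olaparib, 65 under palbociclib and 63 under the combination, and in the plot of 75 of them most points lie left of 0.

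**Figure D2:**
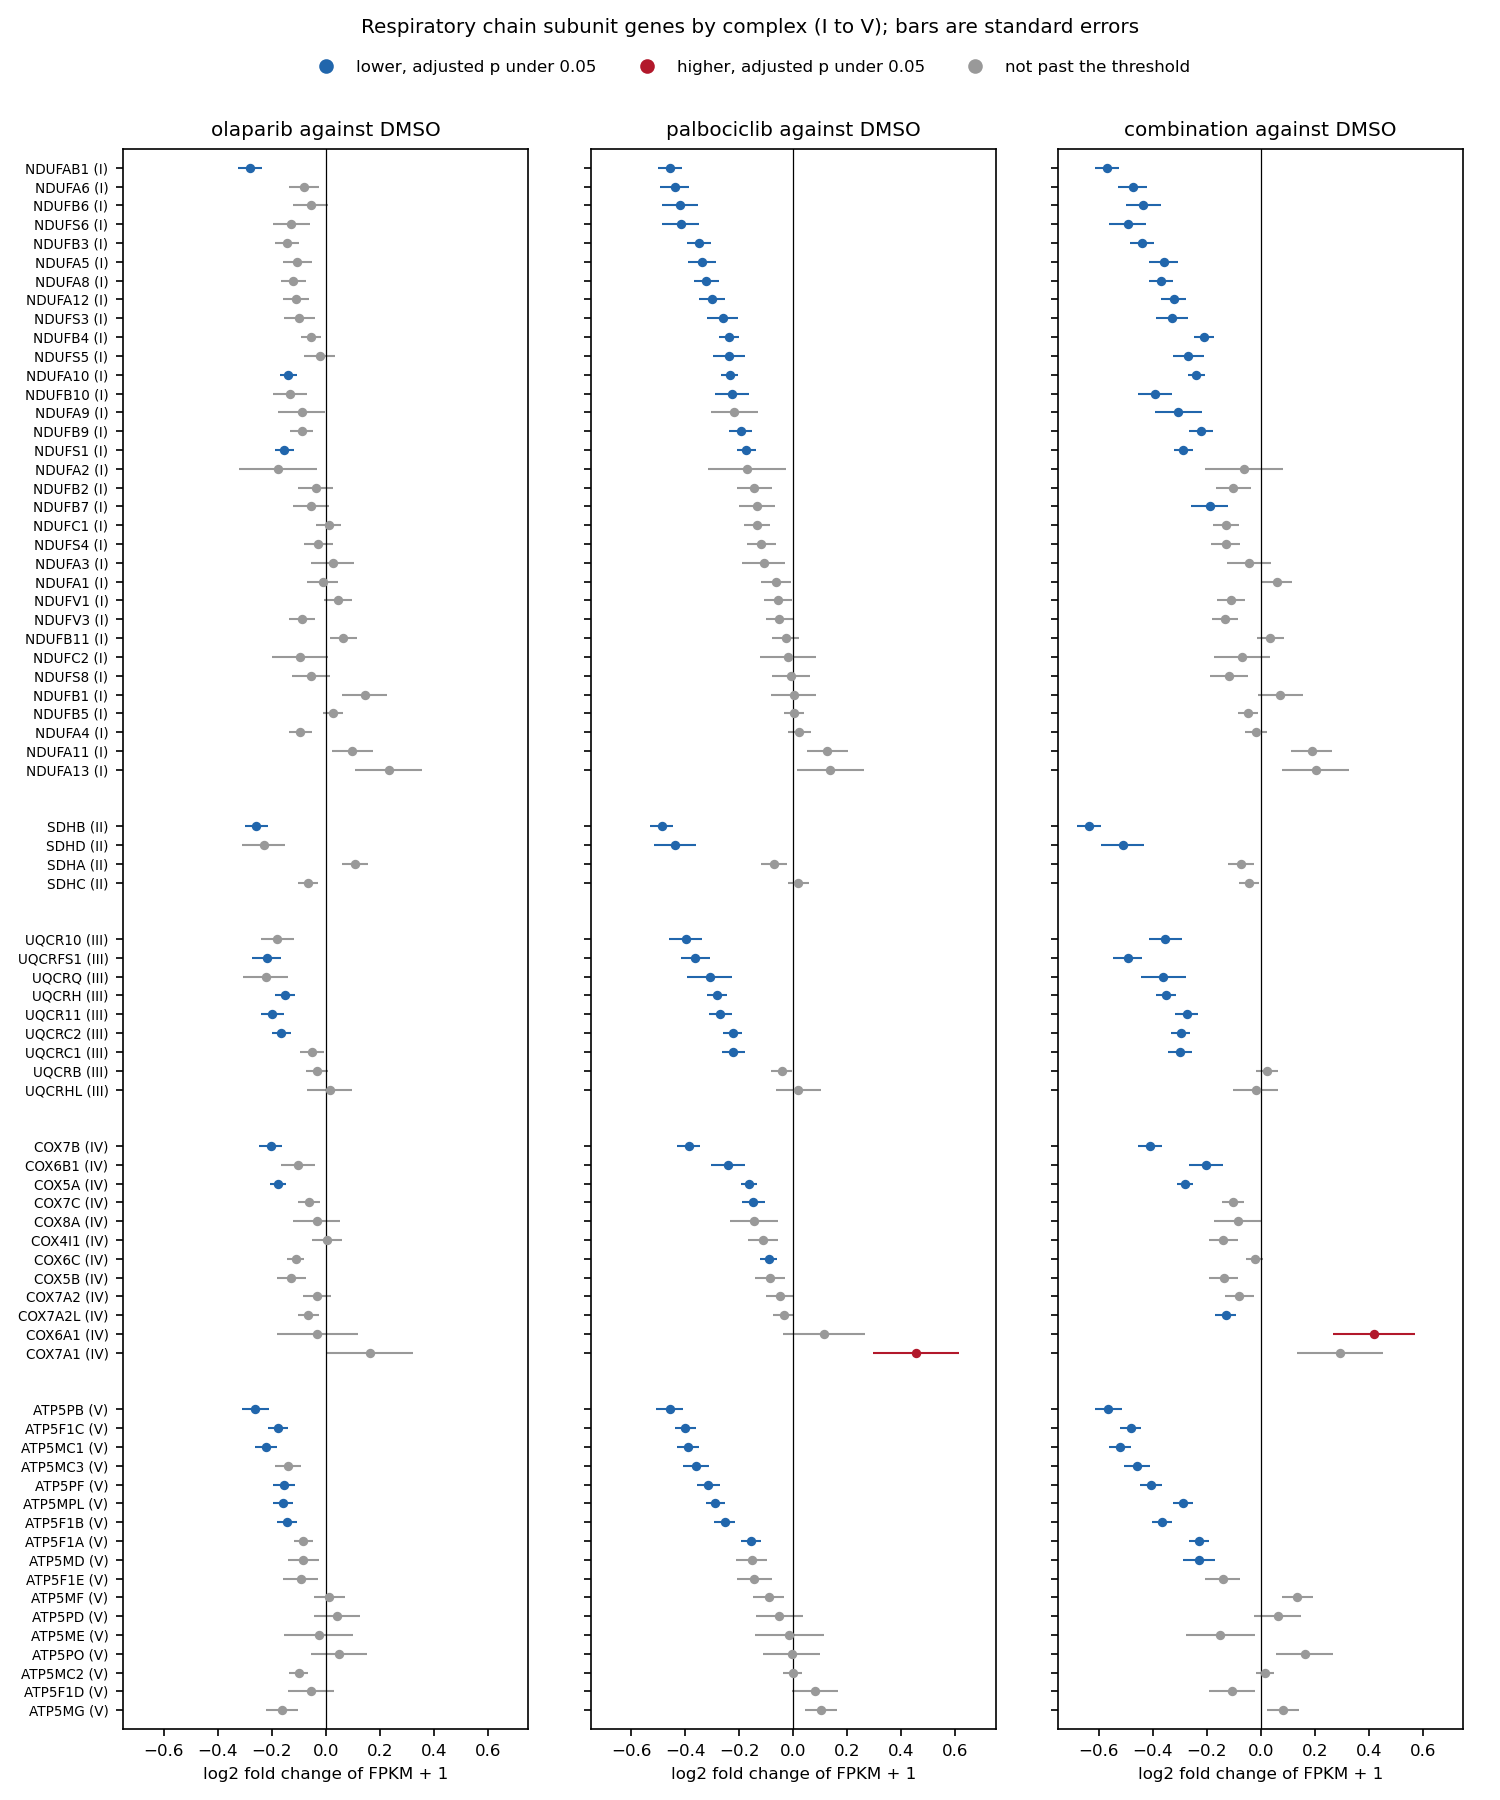
Log2 fold change of FPKM + 1 against DMSO for 75 of the 76 tested subunit genes, ordered within complexes I to V by the palbociclib value; bars are limma standard errors, blue is lower and red is higher at an adjusted p under 0.05, and grey did not pass. Blue points number 16 with olaparib, 37 with palbociclib and 39 with the combination.

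The number of members called depended on the scaling. The sum of all FPKM itself was 295638 ± 25.9 (SD, n = 2) in DMSO, 282861 ± 2613 with olaparib, 275183 ± 1071 with palbociclib and 268217 ± 5322 with the combination. Members made up 1.70% and 1.73% of that sum under DMSO, 1.66% and 1.70% under olaparib, 1.59% and 1.58% under palbociclib, then 1.55% and 1.61% under both drugs, so their share was lower in both palbociclib and both combination libraries. With each library rescaled to the same total (TPM), 29 members fell and 5 rose with palbociclib, and 31 fell and 11 rose with the combination. With quantile normalisation 24 fell and 11 rose with palbociclib, and 22 fell and 18 rose when both drugs were given. The shares of all genes called under these 2 scalings are not given here. Only the medians below set members beside all genes.

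Under TPM the median of all genes was 0.04 with palbociclib and 0.06 with the combination, where members stood at −0.05 and −0.06, and under quantile normalisation the members' medians were −0.03 and −0.01 beside −0.02 and −0.02 for all genes. In bulk RNA, fewer cells carrying a transcript and less of it per cell cannot be told apart. Lower calls with both palbociclib and the combination numbered 35 among the 76 tested members. Of these, 22 are named in the text, some of them because of their fold changes, so they do not stand for all 35. Both calls were kept under every alternative that tested them by 12 of the 22: NDUFAB1, NDUFA6, NDUFS6, SDHB, SDHD, UQCRFS1, COX7B, ATP5PB, ATP5F1B, ATP5F1C, ATP5MC1 and ATP5MC3.

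Complex I, which oxidises NADH, had 15 of 34 tested members lower with palbociclib, 17 with the combination and 3 with olaparib. None was higher in any of the 3. In the same order 31.4%, 35.3% and 10.5% of all genes tested fell, and 18.7%, 21.5% and 4.13% rose. Among all genes at 20 FPKM or more, 54.5%, 60.4% and 26% fell. These shares also stand beside the counts of complexes II to V below. Summed FPKM of complex I was 2118 ± 30.9 in DMSO, 2040 ± 64.4 with olaparib, 1826 ± 13.1 with palbociclib and 1793 ± 96.3 with the combination (SD, n = 2 each). NDUFAB1, the mitochondrial acyl carrier protein that is also a complex I subunit (chr16:23581002-23596356 on GRCh38), had the lowest fold change of complex I under each treatment. It read 66.5 and 69.4 FPKM under DMSO, 57.1 and 54.5 under olaparib, 50.7 and 47.8 under palbociclib, then 45 and 45.9 under both drugs. Every treated library lay under both DMSO libraries, and the pairs of libraries followed the order DMSO, olaparib, palbociclib, combination without overlap. Both combination libraries lay under both palbociclib libraries for 29.1% of all genes tested and 34.2% of tested members. No member passed for the combination against palbociclib, and palbociclib was not tested against olaparib. The same limits apply to the ordered pairs of SDHB, UQCRFS1 and ATP5PB below.

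The limma log2 fold change of NDUFAB1 was -0.28 ± 0.04 (SE, adjusted p = 0.0149) with olaparib, -0.46 ± 0.04 (SE, adjusted p = 0.000236) with palbociclib and -0.57 ± 0.04 (SE, adjusted p = 6.15e-05) with the combination. NDUFA6, an accessory subunit that holds the acyl carrier protein, read 107 and 109.8 FPKM under DMSO, 99 and 106 under olaparib, 81.4 and 78.1 under palbociclib, then 74.6 and 81 under both drugs, so the palbociclib and combination libraries stood apart from the other 4. Its change was -0.08 ± 0.05 with olaparib, which did not pass, -0.44 ± 0.05 (SE, adjusted p = 0.000649) with palbociclib and -0.47 ± 0.05 (SE, adjusted p = 0.000316) with the combination. NDUFS6, an accessory subunit of the NADH-oxidising arm, showed -0.42 ± 0.07 (SE, adjusted p = 0.00239) with palbociclib and -0.49 ± 0.07 (SE, adjusted p = 0.000831) with the combination.

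In the catalytic core of complex I, 2 of 5 tested members fell with palbociclib, beside 13 of 29 accessory members, and medians were −0.06 and −0.17. The core genes that fell were NDUFS1, the largest iron-sulfur subunit, at -0.17 ± 0.03 (SE, adjusted p = 0.00539), and NDUFS3 at -0.26 ± 0.06 (SE, adjusted p = 0.0085). Both calls were lost under quantile normalisation, that of NDUFS1 also under TPM and that of NDUFS3 also without DMSO 2 (−0.23). The difference between core and accessory genes was not tested.

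At the other end, NDUFA13, an accessory subunit also known as a cell death regulator, had the highest complex I value in every comparison with DMSO and passed in none, at 0.23 ± 0.12, 0.14 ± 0.12 and 0.20 ± 0.12 for olaparib, palbociclib and both drugs, with levels of 0.704 to 1.26 FPKM. Over 50% of its coding bases are shared with another gene. NDUFA4 stayed between 72.3 and 82.1 FPKM, with 0.02 ± 0.04 for palbociclib and -0.02 ± 0.04 for the combination.

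Complex II divided into 2 genes that fell and 2 that did not. SDHB, the iron-sulfur subunit (chr1:17018722-17054170), read 36.6 and 38.3 FPKM under DMSO, 30.9 and 31.4 under olaparib, 26.9 and 25.9 under palbociclib, then 23.1 and 24.4 under both drugs. All 4 pairs of libraries were separate, in descending order. Its log2 fold change was -0.26 ± 0.04 (SE, adjusted p = 0.0168) with olaparib, -0.49 ± 0.04 (SE, adjusted p = 0.000173) with palbociclib and -0.64 ± 0.04 (SE, adjusted p = 3.73e-05) with the combination, the lowest value of any of the 76 members in the latter 2.

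SDHA, the flavoprotein that oxidises succinate and binds SDHB (chr5:218241-256700), read 19.4 and 19.4 FPKM under DMSO, 21 and 20.9 under olaparib, 18.2 and 18.6 under palbociclib, then 17.5 and 19.3 under both drugs. The olaparib pair was the highest and the palbociclib and combination pairs overlapped each other. No change of SDHA against DMSO passed, with 0.11 ± 0.05, -0.07 ± 0.05 and -0.07 ± 0.05 for olaparib, palbociclib and the combination. The ratio of SDHB to SDHA within a library, a quantity that scaling cannot change and that was chosen after the values were seen, was 1.89 and 1.97 under DMSO, 1.47 and 1.50 under olaparib, 1.48 and 1.40 under palbociclib, then 1.32 and 1.27 under both drugs. Every treated library lay under both DMSO libraries; with 2 libraries a group the smallest p of an exact permutation test is 0.333, so none was run.

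The membrane anchors SDHC and SDHD, which hold the heme and the quinone site, differed in the same way. SDHD (chr11:112086773-112120013) read 21.2 and 20.9 FPKM under DMSO, 19.5 and 16.3 under olaparib, 15.9 and 14.8 under palbociclib, then 14.9 and 14.1 under both drugs, with all treated libraries under DMSO. Its change was -0.23 ± 0.08 (SE, adjusted p = 0.0947) with olaparib, -0.44 ± 0.08 (SE, adjusted p = 0.00356) with palbociclib and -0.51 ± 0.08 (SE, adjusted p = 0.00134) with the combination. SDHD shares 53.0% of its coding bases with another gene on the same strand, and its FPKM values did not give whole reads at its annotated exon length.

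SDHC read 11.7 and 11.8 FPKM under DMSO, 11.2 and 11.1 under olaparib, 12.2 and 11.7 under palbociclib, then 11.3 and 11.5 under both drugs. Its palbociclib libraries overlapped DMSO, and its olaparib and combination pairs lay under both DMSO libraries. It showed -0.07 ± 0.04, 0.02 ± 0.04 and -0.04 ± 0.04 for olaparib, palbociclib and the combination, none of which passed. The SDHD to SDHC ratio was 1.81 and 1.77 under DMSO, 1.73 and 1.47 under olaparib, 1.30 and 1.27 under palbociclib, then 1.32 and 1.22 under both drugs. The palbociclib and combination libraries were all lower than the 4 others.

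**Figure D3:**
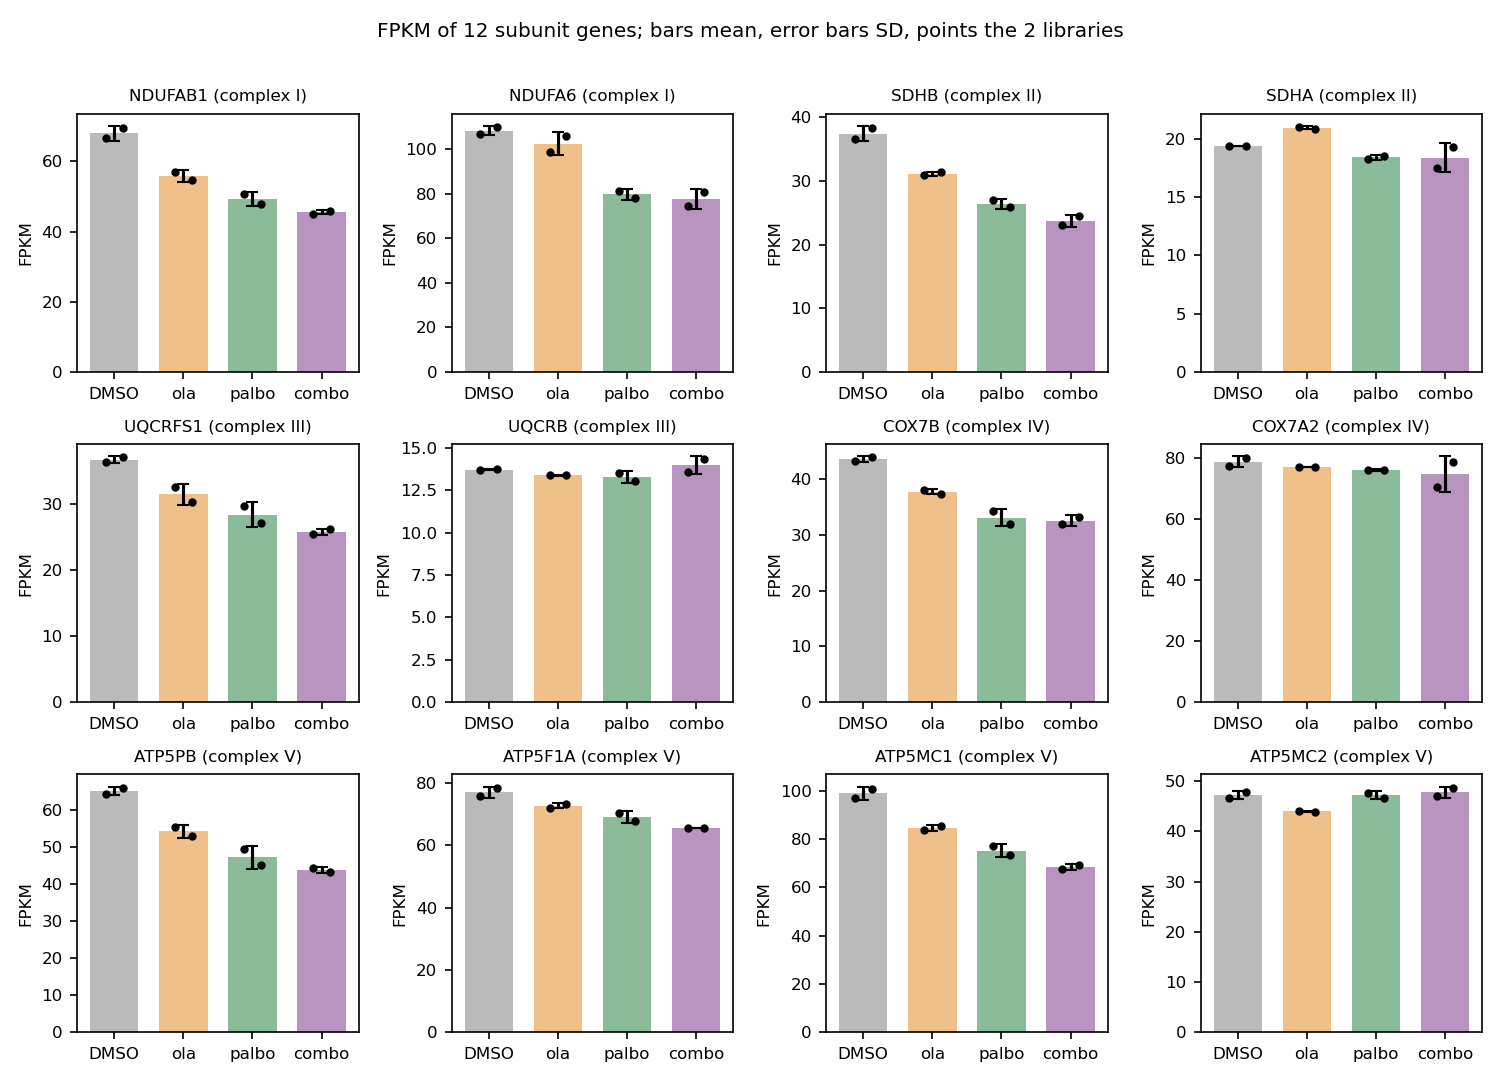
FPKM of 12 subunit genes in each group (ola, olaparib; palbo, palbociclib; combo, combination); bar height is the mean, the whisker SD and each point a library. Within complex II, SDHB steps down from 36.6 and 38.3 in DMSO to 23.1 and 24.4 with the combination, while SDHA stays between 17.5 and 21.0.

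Complex III, the cytochrome bc1 complex, had 7 of 9 tested members lower with palbociclib, 7 with the combination and 4 with olaparib. Of all genes tested 31.4%, 35.3% and 10.5% fell, in the same order. CYC1, cytochrome c1, falls outside the name rule and is counted below with the electron carriers and feeders. The medians of complex III were −0.27, −0.30 and −0.16. Its core proteins UQCRC1 and UQCRC2 and the Rieske iron-sulfur protein UQCRFS1 all fell with palbociclib and with the combination. UQCRFS1 (chr19:29205321-29213541) read 36.3 and 37 FPKM under DMSO, 32.5 and 30.3 under olaparib, 29.6 and 27 under palbociclib, then 25.4 and 26.1 under both drugs. All 4 pairs were separate, and the change was -0.22 ± 0.05 (SE, adjusted p = 0.0405) with olaparib, -0.36 ± 0.05 (SE, adjusted p = 0.00148) with palbociclib and -0.49 ± 0.05 (SE, adjusted p = 0.00027) with the combination.

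UQCRC1 showed -0.22 ± 0.04 (SE, adjusted p = 0.00471) and UQCRC2 -0.22 ± 0.04 (SE, adjusted p = 0.00197) with palbociclib, calls that quantile normalisation ended. UQCR10, a small subunit, had the lowest palbociclib value of the complex at -0.40 ± 0.06 (SE, adjusted p = 0.00172), and UQCRQ, another, the lowest olaparib value at -0.22 ± 0.08, which did not pass (adjusted p = 0.113). UQCRQ lost its palbociclib call under quantile normalisation (−0.16), with no filter, without DMSO 1, where it stood at −0.25, and without either palbociclib library, at −0.30 and −0.32. UQCRH fell by 0.28 on the log2 scale with palbociclib (SE 0.04, adjusted p = 0.000925) and by 0.35 with the combination (SE 0.04, adjusted p = 0.000241), and quantile normalisation ended both calls.

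UQCRB and UQCRHL were the members of complex III that passed in none of the 3 comparisons with DMSO. UQCRB, a small subunit at the quinone-reducing site, read 13.7 and 13.8 FPKM under DMSO, 13.4 and 13.4 under olaparib, 13.5 and 13 under palbociclib, then 13.6 and 14.3 under both drugs. Its values were -0.04 ± 0.04 with palbociclib and 0.02 ± 0.04 with the combination.

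Complex IV, cytochrome c oxidase, had 5 of 12 tested members lower with palbociclib, 4 with the combination and 2 with olaparib. Of all genes tested 31.4%, 35.3% and 10.5% fell, in the same order. The medians of complex IV were −0.10, −0.12 and −0.06. COX7B, a small subunit needed for assembly (chrX:77899438-77907373), fell furthest. It read 43.2 and 43.9 FPKM under DMSO, 38.1 and 37.4 under olaparib, 34.2 and 32 under palbociclib, then 31.9 and 33.3 under both drugs. Its libraries with olaparib, palbociclib or the combination were all under DMSO, by -0.20 ± 0.04 (SE, adjusted p = 0.0275), -0.39 ± 0.04 (SE, adjusted p = 0.000419) and -0.41 ± 0.04 (SE, adjusted p = 0.000218) on the log2 scale.

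COX5A fell by 0.16 with palbociclib (SE 0.03, adjusted p = 0.00361), a call lost under TPM and under quantile normalisation, where the value turned to 0.04. COX6B1 fell by 0.24 with palbociclib (SE 0.06, adjusted p = 0.0165) and by 0.20 with the combination (SE 0.06, adjusted p = 0.0277); both calls were lost with no filter, under TPM (−0.14 and −0.06) and under quantile normalisation, where palbociclib stood at −0.04 and the combination turned to 0.09. The palbociclib call was also lost without DMSO 2 (−0.19) and without either palbociclib library (−0.24 each), and the combination call without DMSO 2 (−0.16) and without combination 1 (−0.11). COX7A2L passed with the combination at -0.13 ± 0.04 (SE, adjusted p = 0.0242), a call lost without either DMSO library (−0.11 and −0.15) or without combination 1 (−0.11), and its value turned to 0.0068 under TPM and 0.09 under quantile normalisation. COX4I1 showed -0.11 ± 0.06 with palbociclib, COX7A2 -0.05 ± 0.05 and COX8A -0.14 ± 0.09, none past the threshold.

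The members that rose against DMSO both belong to complex IV and both were low. COX7A1 read 1.44 and 0.875 FPKM under DMSO, 1.15 and 1.67 under olaparib, 1.72 and 2.15 under palbociclib, then 1.63 and 1.61 under both drugs, from 26 to 69 reads a library, and rose by 0.45 ± 0.16 (SE, adjusted p = 0.0491) with palbociclib. Both palbociclib libraries lay above both DMSO libraries, but the call was lost without DMSO 2 (0.27), without either palbociclib library (0.56 and 0.35), without either combination library (0.45 each), with a replicate block, with a pseudocount of 0.1, with no filter and under quantile normalisation (0.37).

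COX6A1, the common form of COX6A, read 5.79 and 4.66 FPKM under DMSO, 4.8 and 5.35 under olaparib, 6.85 and 4.74 under palbociclib, then 7 and 7.58 under both drugs. It rose by 0.42 ± 0.15 (SE, adjusted p = 0.0488) with the combination, whose libraries were the highest of the 8. That call was lost with a pseudocount of 0.1, with no filter, without DMSO 2 (0.29), without either combination library (0.47 and 0.37) and without either olaparib library (0.42 each). COX6A1 shares 53.5% of its coding bases with another gene.

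Complex V, the ATP synthase, had 8 of 17 members lower with palbociclib, 9 with the combination and 6 with olaparib, and none higher. Of all genes tested 31.4%, 35.3% and 10.5% fell, in the same order. Summed FPKM of complex V was 1400 ± 13.7 in DMSO and 1127 ± 27.4 with the combination (SD, n = 2 each). ATP5PB, the b subunit of the peripheral stalk (chr1:111448864-111462773), had the lowest fold change of the complex under each treatment. It read 64.3 and 65.9 FPKM under DMSO, 55.4 and 52.9 under olaparib, 49.3 and 45 under palbociclib, then 44.2 and 43.1 under both drugs. The 4 pairs were separate in the order DMSO, olaparib, palbociclib, combination, and the changes were -0.26 ± 0.05 (SE, adjusted p = 0.0222), -0.46 ± 0.05 (SE, adjusted p = 0.000412) and -0.56 ± 0.05 (SE, adjusted p = 0.00011).

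In the F1 head, which carries the catalytic sites, 3 of 5 members fell with palbociclib. ATP5F1C, the rotating gamma subunit, read 111 and 112 FPKM under DMSO, 98.6 and 98.5 under olaparib, 86.7 and 82 under palbociclib, then 80.5 and 78.7 under both drugs, and its change was -0.40 ± 0.04 (SE, adjusted p = 0.000223) with palbociclib and -0.48 ± 0.04 (SE, adjusted p = 6.38e-05) with the combination. ATP5F1B fell by 0.25 with palbociclib (SE 0.04, adjusted p = 0.00154) and by 0.37 with the combination (SE 0.04, adjusted p = 0.000215). In the stalk, ATP5PO, the oligomycin sensitivity protein, had no call, at -0.01 ± 0.11 with palbociclib and 0.16 ± 0.11 with the combination, and it shares 67.2% of its coding bases with another gene.

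The c ring, the rotor through which protons pass, is encoded by 3 genes whose mature proteins are identical and whose import sequences differ. ATP5MC1 (chr17:48892765-48895871) read 97 and 101 FPKM under DMSO, 83.9 and 85.5 under olaparib, 77.2 and 73.2 under palbociclib, then 67.7 and 69.5 under both drugs. ATP5MC3 (chr2:175176258-175184607) read 53 and 52.9 FPKM under DMSO, 46.3 and 49.6 under olaparib, 41.3 and 40.8 under palbociclib, then 36.8 and 39.7 under both drugs. Both genes were lower in the palbociclib and combination libraries than in any other, with -0.39 ± 0.04 (SE, adjusted p = 0.000313) and -0.36 ± 0.05 (SE, adjusted p = 0.000946) for palbociclib.

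ATP5MC2 (chr12:53632726-53677408) read 46.7 and 47.8 FPKM under DMSO, 44.1 and 43.9 under olaparib, 47.7 and 46.6 under palbociclib, then 47 and 48.6 under both drugs. Its palbociclib and combination libraries overlapped DMSO, and its values were -0.00 ± 0.03 with palbociclib and 0.02 ± 0.03 with the combination, neither past the threshold. As a share of the summed FPKM of the 3 genes, ATP5MC2 was 23.8% and 23.7% under DMSO, 25.3% and 24.5% under olaparib, 28.7% and 29.0% under palbociclib, then 31.0% and 30.8% under both drugs. ATP5MC1 went from 49.3% and 50.1% in DMSO to 44.7% and 44.0% with the combination. These shares, chosen after the values were seen, do not depend on library scaling, and their groups did not overlap for ATP5MC2.

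The combination against olaparib, which asks what palbociclib added, lowered 34 members (44.7%) and raised 3, beside 27.4% and 17% of all genes tested. At 20 FPKM or more 29 of 53 fell (54.7%), beside 51.8% of all genes at that level. The 3 that rose were COX6A1 at 0.45 ± 0.15 (SE, adjusted p = 0.0472), ATP5MG, a membrane subunit of the ATP synthase, at 0.24 ± 0.06 (SE, adjusted p = 0.0145), and ATP5MC2 at 0.12 ± 0.03 (SE, adjusted p = 0.0305). ATP5MG read 39.4 and 36.3 FPKM under DMSO, 32.6 and 34.9 under olaparib, 42.2 and 39.1 under palbociclib, then 40.8 and 39.5 under both drugs, with the olaparib libraries the lowest pair, and it shares 65.7% of its coding bases with another gene. Its call was lost without combination 1 (0.22) or olaparib 1 (0.20), that of ATP5MC2 without either DMSO library (0.12 each), either olaparib library (0.12 and 0.11) or combination 2 (0.09), and that of COX6A1 with no filter, without either DMSO library (0.45 each), either olaparib library (0.38 and 0.51) or either combination library (0.50 and 0.40).

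Against palbociclib, which asks what olaparib added, the combination changed no member after adjustment by limma or by limma voom on recovered reads, beside 0.0161% of all genes lower and 0.00804% higher. At an unadjusted p under 0.05, 9 members were lower and 1 was higher. The departure from additivity, the olaparib effect with palbociclib minus that without it, was called for no member by limma or by voom, beside 0.00804% of all genes lower and 0% higher. At an unadjusted p under 0.05, 9 members departed upwards and none downwards, and the members' median departure was 0.06 against 0.02 for all genes. The shares of all genes printed for these comparisons are for adjusted calls. Shares at an unadjusted p are not given here, so the unadjusted counts have no background beside them.

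The 13 subunits that mitochondrial DNA encodes showed no such falls. Their summed FPKM was 41873 ± 1709 in DMSO, 41957 ± 201 with olaparib, 41685 ± 835 with palbociclib and 41871 ± 1221 with the combination (SD, n = 2 each), while the 85 nuclear genes summed to 5064 ± 54.9, 4742 ± 121, 4357 ± 37.1 and 4239 ± 189. The ratio of the sums was 8.57 and 7.97 under DMSO, 8.98 and 8.72 under olaparib, 9.64 and 9.49 under palbociclib, then 10.4 and 9.38 under both drugs, and every treated library was above both DMSO libraries. None of the 13 was called lower in any comparison with DMSO.

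With palbociclib none of the 13 passed in either direction. MT-ATP8, which overlaps MT-ATP6, was higher with olaparib (0.57 ± 0.15 (SE, adjusted p = 0.0447)) and with the combination (0.52 ± 0.15 (SE, adjusted p = 0.0189)), and MT-CO1, the catalytic subunit of complex IV, with the combination (0.15 ± 0.05 (SE, adjusted p = 0.0378)). The olaparib call of MT-ATP8 was lost with no filter, under quantile normalisation, by voom and without any single DMSO, olaparib or combination library (0.44 to 0.70) and its combination call with no filter, by voom and without DMSO 2 (0.40) or combination 1 (0.43). That of MT-CO1 was lost with no filter, under quantile normalisation and without either DMSO library (0.16 and 0.13), combination 1 (0.12), either olaparib library or palbociclib 1 (0.15 each). PolyA selection captures mitochondrial transcripts in part, so their FPKM are not on the same footing as nuclear levels.

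**Figure D4:**
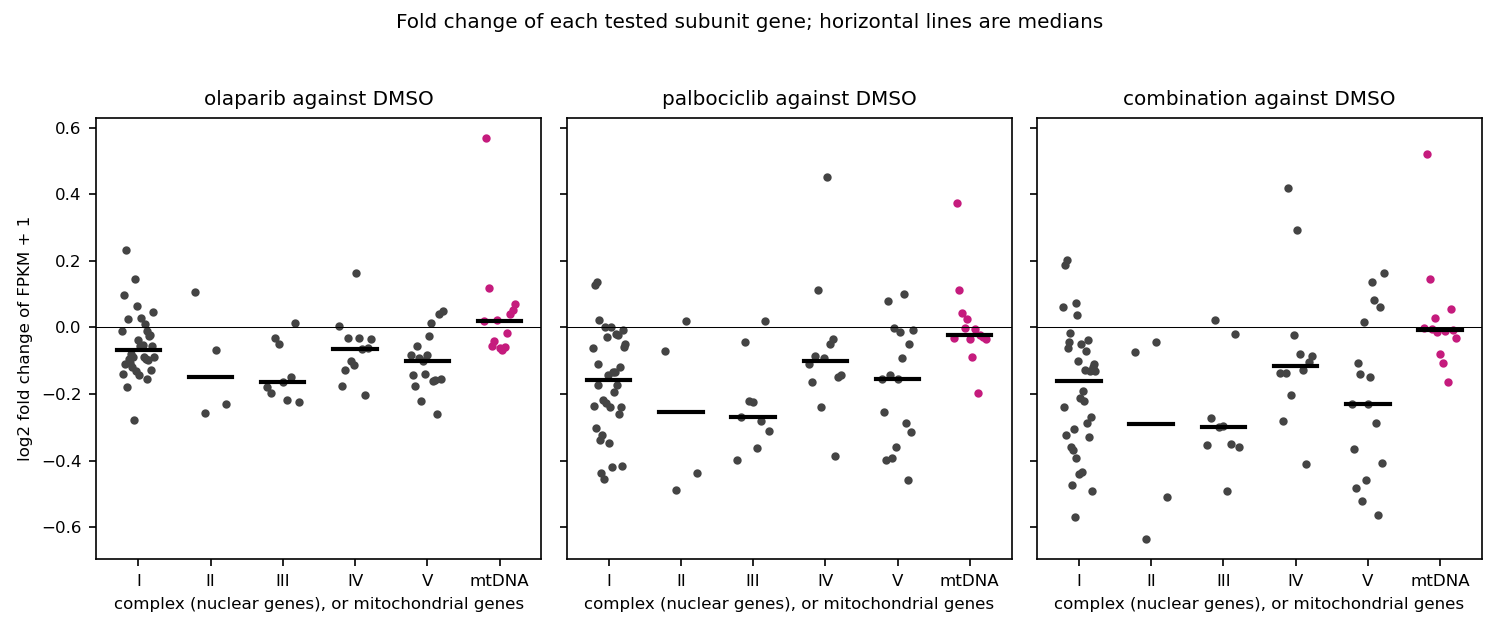
Log2 fold change of FPKM + 1 against DMSO for each tested subunit gene by complex, with the 13 mitochondrially encoded subunits (mtDNA) beside them; each point is a gene and horizontal lines are medians. With palbociclib the medians are −0.16, −0.25, −0.27, −0.10 and −0.15 for complexes I to V and −0.02 for the mitochondrial genes.

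Assembly factors were counted beside the 31.4% of all genes tested that fell with palbociclib and the 18.7% that rose. In complex I 7 of 16 assembly genes fell, 1 of 4 for complex II (and 1 rose), 3 of 6 for complex III, 11 of 19 for complex IV (and 1 rose) and 2 of 4 for complex V with its inhibitor (and 1 rose). The complex V gene that rose was ATP5IF1, the inhibitor of reverse ATP synthase activity, at 0.74 ± 0.07 (SE, adjusted p = 0.000254). Among electron carriers and feeders 9 of 19 fell and 4 rose, and CYCS, cytochrome c, fell at -0.74 ± 0.05 (SE, adjusted p = 9.03e-05).

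Among genes that act on mitochondria as a whole, the genes lower with palbociclib were 12 of 18 regulators of mitochondrial biogenesis, 16 of 18 of the TCA cycle (1 rose) and 20 of 25 of mitochondrial import, with medians of −0.18, −0.26 and −0.39, beside 31.4% of all genes tested and 54.5% of those at 20 FPKM or more. The regulators NRF1 (-0.54 ± 0.05 (SE, adjusted p = 0.000261)), PPARGC1B (-0.41 ± 0.05 (SE, adjusted p = 0.000592)), PPRC1 (-0.32 ± 0.04 (SE, adjusted p = 0.000499)), TFAM, which packages mitochondrial DNA (-0.41 ± 0.05 (SE, adjusted p = 0.000533)), and SLIRP, which stabilises mitochondrial RNA (-0.69 ± 0.07 (SE, adjusted p = 0.000254)), were among those that fell. With olaparib the counts lower were 8, 7 and 14, beside 10.5% of all genes and 26% at 20 FPKM or more, and with the combination 13, 16 and 22, beside 35.3% and 60.4%. These lists were chosen with earlier results of these data known.

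Members with and without the regulator motifs were counted side by side for palbociclib. With NRF1 letters 6 of 9 tested members fell and without them 26 of 52, with ETS letters 5 of 10 against 27 of 51, with YY1 letters 5 of 9 against 27 of 52, and with the E-box 3 of 5 against 29 of 56. With any of the NRF1, ETS or YY1 letters 14 of 26 tested members fell, and with none of these 18 of 35. ATP5MC2, whose printed promoter holds NRF1 letters, was among those that did not fall.

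Proliferation genes moved with palbociclib and with the combination, whereas with olaparib their summed FPKM overlapped DMSO (646 and 641 against 640 and 666). Singly, CCNA2 was called lower with olaparib, at -0.19 ± 0.04 (SE, adjusted p = 0.0323 by limma), a call lost under TPM and quantile normalisation. PCNA stood at 0.11 ± 0.03 with olaparib and did not pass, nor did MKI67, CCNB1, CDK1 and MCM2. All 7 of MKI67, TOP2A, CCNA2, CCNB1, CDK1, MCM2 and PCNA fell with palbociclib and with the combination, and their summed FPKM was 653 ± 18.5 in DMSO, 643 ± 3.45 with olaparib, 374 ± 8.16 with palbociclib and 352 ± 1.86 with the combination (SD, n = 2 each). The part of this in the subunit values was not tested. The labels give an epithelial morphology, yet all 10 epithelial markers measured were under 1 FPKM on average (summed 0.972 to 2.54 FPKM a library). The 6 mesenchymal markers summed to 436 to 601 FPKM, and 4 of the 5 tested rose with palbociclib. FN1, also a mesenchymal marker, was under 1 FPKM on average and was not tested. The 6 markers of other cell types summed to 3.36 to 4.53. Reads recovered from the FPKM values of 28635 genes numbered 18158713 to 30122425 a library, fewest in a combination library and most in a DMSO library.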

How the data were processed

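Polyadenylated RNA of 8 libraries (4 groups of 2) was measured, per the labels. The NEBNext Ultra kit was used for library construction, per the labels' protocols. Per the submitters' processing notes, the tools were STAR 2.5.1b, HTSeq 0.6.0 and CASAVA 1.8 on GRCh38 (hg38), with no role given; the sources used here do not say whether strand was used in counting. The authors deposited FPKM values for 31721 Ensembl genes. With GENCODE v29 exon lengths, on GRCh38, 28635 genes (90.3%) gave whole reads within 0.01 reads, and those reads entered limma voom as an alternative.

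Values were tested as log2(FPKM + 1) with limma 3.58.1 in R 4.3.3, with 1 mean per group over all 8 libraries, a trended empirical Bayes spread (4 residual and 3.01 prior degrees of freedom), two-sided tests and Benjamini-Hochberg adjustment over the 12443 genes with a mean of at least 1 FPKM. The fit was tested on simulated data. Errors are limma standard errors for fold changes and SD for levels. The 6 comparisons set every treatment against DMSO and the combination against either drug, and took the departure from additivity. Alternatives were a pseudocount of 0.1, no filter, TPM, quantile normalisation, voom, a replicate block, leaving out each library and, added after the overlap was seen, leaving out members that share over 50% of their coding bases.

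Members, gene lists and the rule for named genes were chosen with earlier results of these data known. The rule named, by complex, the most abundant member, the lowest and highest fold change per treatment, the SDH genes, isoform families, members called higher, members below the filter, the mitochondrial genes called, and regulators called. NDUFA6, NDUFS6, NDUFS1, NDUFS3, UQCRC1, UQCRC2, ATP5F1C and COX5A were chosen after their values were seen. Promoters came from RefSeq on GRCh38.p14. The values of 1 member are not reported here.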

Additional observations from a re-analysis of the deposited data

How the results depend on the processing

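The limits are the 2 libraries a group, and values scaled before deposit; at low levels the depth limits precision. The count of members lower with olaparib was 4 with no filter, 3 with quantile normalisation and 4 with TPM, and 1 was higher with TPM; leaving out 1 library gave 0 to 16 lower. With palbociclib quantile normalisation gave 24 lower and 11 higher, TPM gave 5 higher, and a pseudocount of 0.1, no filter and the replicate block gave 0 higher; without 1 library 30 to 39 were lower and 0 to 1 higher. With the combination quantile normalisation gave 22 lower and 18 higher, TPM 11 higher, voom 2 higher, and a pseudocount of 0.1, no filter and leaving out members that share coding bases 0 higher; without 1 library 34 to 46 were lower and 0 to 1 higher. Against olaparib the combination gave 11 lower and 13 higher with quantile normalisation, 22 and 8 with TPM, and 1 higher without members that share coding bases; without 1 library 20 to 36 were lower and 0 to 3 higher. The cause was not tested. The count of 0 for the combination against palbociclib and for the departure stood under every alternative run. Of the values of single genes, 1644 kept direction and side of the threshold, 212 lost a call, 41 gained one and 74 changed sign.

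Over all genes tested, same-numbered libraries did not deviate together (correlations −0.05 to 0.03). Such a correlation cannot show whether some of the genes shared a batch. With a replicate block the counts of members lower were 17, 39 and 43 with olaparib, palbociclib and both drugs.

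Under quantile normalisation the log2 fold change with olaparib became 0.0702 for COX7A2, 0.045 for COX8A, 0.0093 for NDUFA4, 0.024 for NDUFA6, 0.15 for NDUFS5, 0.019 for UQCRB, 0.053 for UQCRC1 and -0.027 for UQCRHL. With palbociclib it became 0.15 for ATP5MC2, 0.084 for COX4I1, 0.038 for COX5A, 0.18 for COX7A2, 0.12 for COX7A2L, 0.047 for COX8A, 0.051 for SDHA, 0.047 for UQCRB and -0.084 for UQCRHL. With the combination it became 0.12 for COX4I1, 0.086 for COX6B1, 0.21 for COX7A2, 0.092 for COX7A2L, 0.17 for COX8A, 0.27 for NDUFA4, 0.098 for SDHA and 0.0701 for SDHC. Under TPM it became 0.026 for COX6A1, 0.0305 for COX7A2, 0.029 for COX8A, 0.042 for NDUFS5, 0.028 for UQCRB and 0.012 for UQCRC1 with olaparib, 0.10 for ATP5MC2, 0.087 for ATP5PO, 0.053 for COX7A2, 0.067 for COX7A2L, 0.029 for SDHA and 0.056 for UQCRB with palbociclib and 0.0003 for COX4I1, 0.0603 for COX7A2, 0.0068 for COX7A2L, 0.053 for COX8A, 0.12 for NDUFA4, 0.063 for SDHA, 0.091 for SDHC and 0.088 for UQCRHL with the combination. COX6B1 and COX7A2L with the combination and COX5A with palbociclib were calls that changed sign. Leaving out 1 library changed the sign of ATP5PO (-0.076 to 0.18), COX4I1 (-0.0305 to 0.0376), COX6A1 (-0.16 to 0.10), COX7A1 (-0.025 to 0.35), COX8A (-0.13 to 0.063), NDUFS5 (-0.065 to 0.022) and UQCRHL (-0.019 to 0.048) with olaparib; ATP5MC2 (-0.0197 to 0.0142), ATP5PO (-0.13 to 0.12), COX6A1 (-0.11 to 0.34), NDUFA4 (-0.0102 to 0.0541), SDHC (-0.0126 to 0.0503) and UQCRHL (-0.042 to 0.078) with palbociclib; ATP5MC2 (-0.0083 to 0.0396), COX7A2 (-0.16 to 0.0006), NDUFA4 (-0.050 to 0.0142), UQCRB (-0.012 to 0.0597) and UQCRHL (-0.0495 to 0.0114) with the combination.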
